A study of Drosophila melanogaster with 2 samples.

Results

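The regions described here lie on chromosome 4 and next to the centromeres of the larger Drosophila melanogaster chromosomes. They come from chromatin immunoprecipitation with sequencing (ChIP-seq) against GFP in embryos aged 0 to 24 h, of pooled males and females. The line stably expresses the homeodomain transcription factor bsh with GFP fused to its C terminus. The labels give no promoter for the fusion and 1 group of 2 biological replicates. No other genotype, tissue or control was analysed, so it was not tested which regions would also appear without the fusion protein. A region was a member when the summit of the pooled dm6 list lay on chromosome 4, on 2L above 22 Mb, on 3L above 22.9 Mb, on 3R below 4.5 Mb, or on X above 22.5 Mb. By this rule, which uses position only, 423 of the 30000 pooled regions were members: 290 on chromosome 4, 69 on 3R, 36 on 2L, 19 on X and 9 on 3L. Overlapping members merged to 340.

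As background, chromosome 4 and the DNA around centromeres are the main heterochromatin of the fly outside the Y chromosome. Their nucleosomes carry methylated lysine 9 of histone H3, bound by the HP1a protein, and transposable elements lie between and inside the genes. Chromosome 4 is unusual because its long arm combines these marks with active genes, which the POF protein also covers. Pericentric genes such as lt and cta have long introns full of repeats and are known for needing a heterochromatic setting. The factor bsh is known for its part in neuron identity in the visual system and brain.

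The 3 members of highest pooled signal were an intergenic region on 3R nearest CG34112, a region in the 3′ UTR of Cals and a region at Sox102F, the last 2 on chromosome 4. The windows of 100 bp on each side of 7 summits follow, read from the RefSeq copy of the release 6 assembly (dm6), plus strand, 5′ to 3′. They are shown because they hold members of highest signal on chromosome 4, 3R, X and 2L whose window overlaps no annotated untranslated region. Capitals mark 6 searched words, on either strand. The word TAATTA is a homeodomain core, as is the variant CAATTA bound by related factors. The word GAGAGA is bound by the factor encoded by Trl, while ATCGAT is the core of the DREF word. The word TCACAC is the core of the M1BP word, while CACACA is a simple repeat that can overlap it. Adjacent or overlapping words form 1 run of capitals.
zfh2 promoter summit: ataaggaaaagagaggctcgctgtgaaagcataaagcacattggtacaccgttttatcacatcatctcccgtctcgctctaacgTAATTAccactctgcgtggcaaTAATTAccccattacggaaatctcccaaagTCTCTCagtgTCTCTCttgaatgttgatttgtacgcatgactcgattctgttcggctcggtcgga
Sox102F internal promoter summit: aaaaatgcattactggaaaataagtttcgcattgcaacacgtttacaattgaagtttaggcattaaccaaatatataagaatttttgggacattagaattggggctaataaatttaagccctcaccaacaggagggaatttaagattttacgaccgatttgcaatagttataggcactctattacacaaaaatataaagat
Sox102F intronic summit: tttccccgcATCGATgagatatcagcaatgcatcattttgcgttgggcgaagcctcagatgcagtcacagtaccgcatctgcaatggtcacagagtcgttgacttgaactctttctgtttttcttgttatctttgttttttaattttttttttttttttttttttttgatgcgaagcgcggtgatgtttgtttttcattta
intergenic summit nearest dati: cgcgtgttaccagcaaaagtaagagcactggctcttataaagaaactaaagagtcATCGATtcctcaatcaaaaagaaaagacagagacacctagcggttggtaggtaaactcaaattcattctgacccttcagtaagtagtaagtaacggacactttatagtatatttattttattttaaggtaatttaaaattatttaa
intergenic summit nearest CG34112: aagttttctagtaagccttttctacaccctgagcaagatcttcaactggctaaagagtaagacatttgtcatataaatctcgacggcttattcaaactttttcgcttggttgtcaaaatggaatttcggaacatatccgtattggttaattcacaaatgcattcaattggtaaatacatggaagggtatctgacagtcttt
summit in introns of CG42346 and fog: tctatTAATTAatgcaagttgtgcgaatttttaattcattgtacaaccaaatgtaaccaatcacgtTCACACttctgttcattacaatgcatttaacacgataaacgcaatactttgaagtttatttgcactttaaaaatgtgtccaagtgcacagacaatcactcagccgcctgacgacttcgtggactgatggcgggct
tio promoter summit: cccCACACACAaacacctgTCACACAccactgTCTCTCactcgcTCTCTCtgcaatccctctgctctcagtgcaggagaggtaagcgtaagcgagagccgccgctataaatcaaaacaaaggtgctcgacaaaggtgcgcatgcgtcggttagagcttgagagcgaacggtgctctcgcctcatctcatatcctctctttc

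In order, these windows are chr4:501525-501725, chr4:807525-807725, chr4:829904-830104, chr4:404445-404645, chr3R:4395207-4395407, chrX:22833665-22833865 and chr2L:22018991-22019191. The zfh2 window held TAATTA at 2 positions and the reverse complement of the Trl word at 2. The tio window held the CA repeat word, the M1BP core and, as reverse complements, the Trl word. The X window held the homeodomain core TAATTA along with the M1BP core. The Sox102F intron and the dati window each held ATCGAT. The Sox102F promoter window and that near CG34112 held none of the 6 words. A match is only a run of letters in this window.

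Fewer members than pooled regions in general reached the shorter deposited list, which was cut at an irreproducible discovery rate (IDR). This rate compares the order of regions in one replicate with that in the other. That list was the 4447 pooled regions of highest signal. A place in it does not by itself mean that a region was strong in both replicates. The list held 24 of 423 members, or 5.67% (95% exact binomial interval 3.67 to 8.32%), against 14.8% of all pooled regions. On chromosome 4 it held 15 of 290 (5.17%, interval 2.92 to 8.39%), on 3R 7 of 69 (10.1%, 4.18 to 19.8%), on 2L 1 of 36, on X 1 of 19 and on 3L 0 of 9, which gives an upper bound of 33.6% for 3L. When the strongest 4447 regions of 1 replicate took the place of the IDR list, they held 19 of 451 regions in the segments for replicate 1 (4.21%) and 23 of 382 for replicate 2 (6.02%). The rest of each arm lay between 14.3% on 2L and 16.9% on X. All intervals cover counting error only, because regions of 1 list share their libraries and are not replicates. With 1 group of 2 replicates no test over samples was available, and no difference between the segments and the rest was tested.

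The pooled signal, the authors' own value on a scale not given in the sources used here, ranged from 27.2 to 426.1 over the members with a median of 44.28. The median over all other regions was 51.62 and their highest value 2129.83. The member median stood at the 39.9th percentile of the pooled list, the 38.4th of replicate 1 and the 37.9th of replicate 2. Medians by segment were 43.8 on chromosome 4, 47 on 3R, 44.44 on X, 41.15 on 2L and 38.08 on 3L. The deposited q-value was at its highest in 39 members (9.22%), against 7005 of all 30000 pooled regions (23.4%). Of these 39, 15 were outside the IDR list. That list holds 4447 regions, fewer than the 7005 at the highest q-value, so such regions lie outside it in general too.

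**Figure D1:**
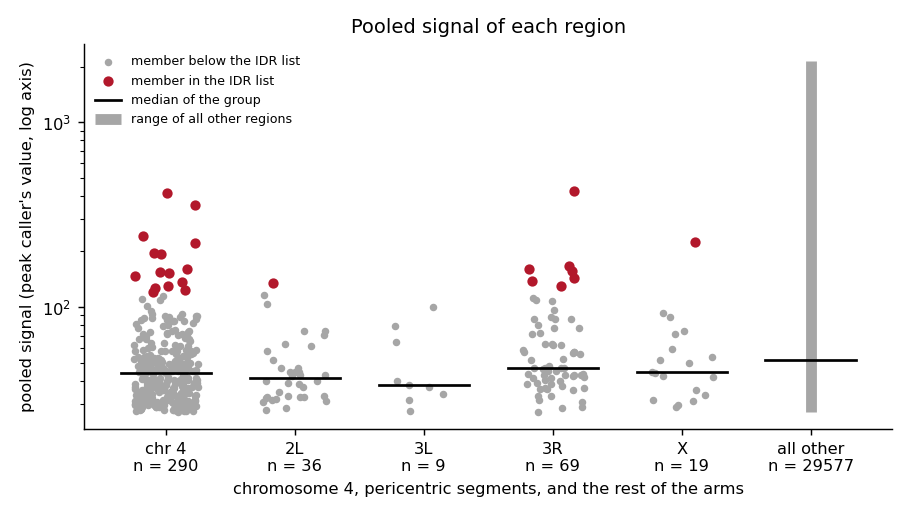
Pooled signal (log axis) of every member by segment, with red points for members in the IDR list, black lines for medians, and a grey bar for the range of all other regions. The median of each segment, from 38.08 to 47, was below the 51.62 of the rest, and no member exceeded 426.1.

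The strongest summit of chromosome 4 was at 1113342, in the 3′ UTR of Cals, which encodes a calsyntenin, where the convergent gene sv, a Pax-family factor gene, also ends. Its signal was 412.5 in the pooled list (rank 470), 229.1 in replicate 1 (rank 507) and 183.8 in replicate 2 (rank 459). It was 9623 bp from the nearest start site (TSS), that of Cals, so its assignment to either gene is uncertain.

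Sox102F, which encodes an HMG-box factor of the Sox family, held 2 IDR summits. The first, at 807625 and 278 bp from a TSS inside the gene, had a pooled signal of 354.6 (rank 644), 221 in replicate 1 (rank 546) and 134.9 in replicate 2 (rank 921). The second, at 830004 in an intron and 4389 bp from a TSS, had 243 in the pooled list (rank 1387), 142.2 in replicate 1 (rank 1332) and 102.4 in replicate 2 (rank 1563). Both summits were among the strongest 4447 regions of each replicate. In all, 16 members, some of them overlapping, lay in the gene or within 2 kb of it.

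The zinc finger homeodomain gene zfh2 had an IDR summit at 501625, 185 bp from its TSS. Its signal was 221.2 in the pooled list (rank 1616), 129.7 in replicate 1 (rank 1562) and 87.11 in replicate 2 (rank 2099). With 20 members in it or within 2 kb, zfh2, which is 39065 bp long, had the most of the listed genes. Only 1 of the 20 was in the IDR list. Some of the 20 overlap and match the same replicate regions, so they are not all separate measurements. The next summit in the gene, at 505408 in an intron, had a signal of 95.37 and rank 6408.

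Effectors of Hedgehog and Wnt signalling, ci and pan, lie close together near the start of chromosome 4. The ci promoter summit at 56352, 21 bp from the TSS, had a pooled signal of 154.2 (rank 2964), with 86.81 in replicate 1 and 65.75 in replicate 2. A further summit at 60242, 3201 bp from the same TSS and inside the antisense RNA gene asRNA:CR43957, had 126.3, with 72.63 in replicate 1 (rank 4178) and 56.21 in replicate 2 (rank 4648). At pan, which encodes the TCF protein, 2 overlapping IDR regions had summits at 69517 (signal 194.6, rank 1991) and 69718 (signal 161.1, rank 2745). Both pan regions matched 1 region of replicate 1 (104.6, rank 2269) and 1 of replicate 2 (97.02, rank 1713), so they are not separate measurements. The RpS3A promoter, a ribosomal protein gene between ci and pan, had a summit at 67223 with a signal of 135.8, with 81.67 in replicate 1 and 58.68 in replicate 2. These 5 regions made the first 100000 bp the richest step of chromosome 4 in IDR regions, and the other steps of this length held 0 to 2.

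Of the remaining chromosome 4 summits in the IDR list, 2 were intergenic. One at 404545, 8940 bp from the TSS of dati, a zinc finger gene, had a pooled signal of 195.1 (rank 1980), 89.32 in replicate 1 (rank 2969) and 91.64 in replicate 2 (rank 1906). The other at 424824, 19087 bp from the TSS of the Wnt pathway gene lgs, had 146.3, with 87.18 and 68.91 in the replicates. At myo, which encodes the TGF-β ligand myoglianin, a promoter summit at 695960 had 152.5 and a 5′ UTR summit at 695340 had 123.1. The promoter summit of ATPsynbeta, which encodes a subunit of the mitochondrial ATP synthase, had 129.4. That of Tdg, a thymine DNA glycosylase gene, had 120.4, the lowest of the 15 on chromosome 4. The Tdg summit, which also lies in the RNA gene lncRNA:CR43958, ranked 6975 in replicate 1 and 2565 in replicate 2.

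In the pericentric segments the strongest summit was intergenic on 3R, at 4395307 and 1048 bp from the TSS of CG34112. Its pooled signal was 426.1 (rank 442), the highest of all members, with 210.3 in replicate 1 (rank 620) and 206.3 in replicate 2 (rank 360). On X, a summit at 22833765 lay in introns of CG42346 and of fog, which encodes a secreted signal for cell shape change at gastrulation. Its signal was 224.8 in the pooled list (rank 1573), 134.2 in replicate 1 (rank 1472) and 91.88 in replicate 2 (rank 1893). On 2L, the promoter of tio, a zinc finger gene related to teashirt, had 135.5 (rank 3690) at 22019091, with 67.96 (rank 4670) and 54.95 (rank 4832) in the replicates, both outside the strongest 4447 regions.

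Of the other 6 IDR members on 3R, 4 were at promoters. Sfxn1-3, a sideroflexin gene, had a summit 34 bp from its TSS (signal 167, with 71 at rank 4348 in replicate 1 and 100.1 at rank 1621 in replicate 2). DhpD, a dihydropterin deaminase gene, had one at 132 bp (156.6, ranks 2032 and 7219). Of 2 neighbouring fatty acid elongase genes, CG31523 had 159.8 in an intron, 508 bp from its TSS (77 and 83.15 in the replicates, ranks 3784 and 2317). The CG31522 promoter had 139 (ranks 4838 and 1379). The CG31522 summit also lies in asRNA:CR43629. The translation initiation gene eIF3a had 129.3 (ranks 5102 and 4261). A summit in introns of CG14636 and aux, the auxilin gene, had 143.5 (ranks 3149 and 4892). The ranks of the replicates were farthest apart at DhpD, CG31522 and Sfxn1-3.

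On 3L no member was in the IDR list. The 3 of highest signal were at promoters of CG12768 (100.5, rank 5884), the ribosomal protein gene RpL10 (78.86, rank 8479) and scro, an NK-class homeobox gene (64.36, rank 11292). The scro promoter ranked 8611 in replicate 1 and 29919 in replicate 2. On 2L, Clamp, which encodes a GA-repeat binding protein, was the strongest member outside the IDR list, with a promoter signal of 116.6 (rank 4638, ranks 5135 and 6778 in the replicates), and an intergenic summit nearest CG31693 followed with 104.3. On X, a summit in an intron of Cda4 (93.16), which overlapped no region of replicate 2, and the fog promoter (87.83, ranks 9030 and 8803) followed.

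The 24 IDR members were set against the replicates. All 24 overlapped a region of both relaxed lists. In replicate 1 their ranks ran from 507 to 6975 with a median of 3135, and in replicate 2 from 360 to 7219 with a median of 2441. Of the 24, 19 (79.2%) were among the strongest 4447 regions of replicate 1, 19 of replicate 2, 16 (66.7%) of both and 2 of neither. Of all 4447 IDR regions, 3910 (87.9%) were among the strongest of replicate 1, 3808 (85.6%) of replicate 2 and 3325 (74.8%) of both. Counted from each replicate's own list, 15 of its 19 strongest regions in the segments overlapped a strongest region of the other for replicate 1 (78.9%, interval 54.4 to 93.9%), against 75.5% of all its strongest regions. For replicate 2 it was 15 of 23 (65.2%, interval 42.7 to 83.6%), against 74.4%. Both intervals include the share of all regions.

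Some members were among the strongest 4447 regions of 1 replicate and lower in the other. The promoter region of MP1, a protease gene on 3R, ranked 2976 in replicate 2 and 6433 in replicate 1, and that of the ephrin receptor gene Eph 3226 and 12883. That of the helicase gene abs ranked 4255 and 26633, and a region in an intron of CG42748, nearest the TSS of dunk on 2L, 4167 and 10628. The promoter region of the DNA repair gene Rad23 ranked 3271 in replicate 2 and overlapped no region of replicate 1. In the other direction, the promoter of mav, which encodes a TGF-β ligand, ranked 4233 in replicate 1 and 9487 in replicate 2. Over all relaxed members, 258 of 423 (61%) overlapped a region of both replicate lists, against 75% of all pooled regions. A region of replicate 1 was matched by 359 members (84.9%), beside 87.3% of all pooled regions, and one of replicate 2 by 310 (73.3%), beside 85.7%. On chromosome 4 the shares were 83.4% and 69%, and 12 members there matched neither, as did 607 of all 30000 pooled regions. Across the 258 members matched in both, the replicate signals correlated with Spearman's rho 0.578 (Pearson's r of log2 signal 0.685), beside 0.723 (0.812) over all 22504 such regions. These points share their 2 libraries and the pooled list that chose them, so this is a description.

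**Figure D2:**
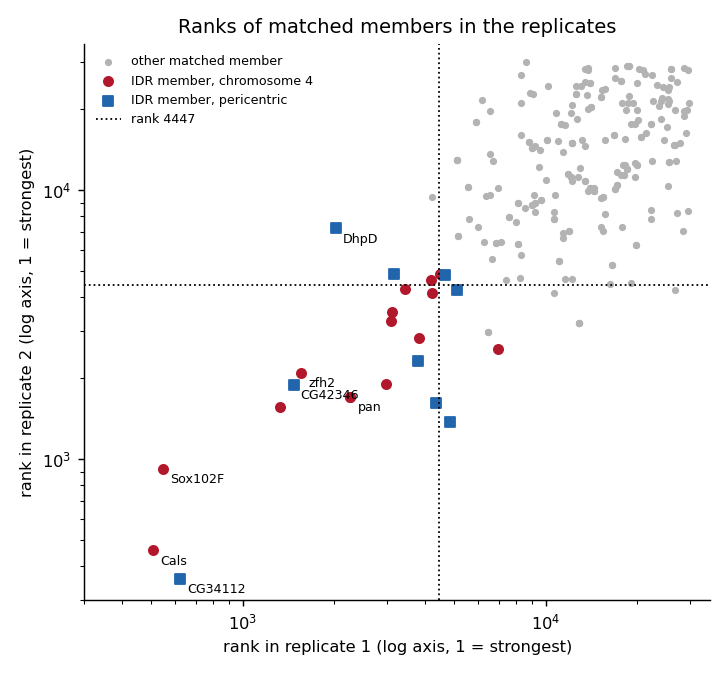
Rank in replicate 1 against rank in replicate 2 (log axes, 1 is strongest) for members that overlap a region in both lists, with dotted lines at rank 4447. The summits near Cals and CG34112 and the Sox102F promoter summit rank 921 or better in both, while DhpD ranks 2032 and 7219.

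Density differed between chromosome 4 and the pericentric segments. Chromosome 4 held 215 pooled regions per Mb over 1.35 Mb, beside 246 per Mb in the rest of the arms, and the pericentric segments together held 10.8 per Mb over 12.3 Mb. For IDR regions the values were 11.1 per Mb on chromosome 4, 0.734 per Mb in the pericentric segments and 36.8 per Mb in the rest. Set against protein-coding genes, chromosome 4 held 18.8 IDR regions per 100 genes, the pericentric segments 5.26 and the rest 32.3. Among pericentric segments 3R had 1.56 IDR regions per Mb, X 0.959, 2L 0.661 and 3L 0.

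Within the pericentric segments, members sat almost wholly at the edge away from the centromere. The first 0.5 Mb inside the 4 boundaries held 124 of 133 members and all 9 IDR regions, and the 10.3 Mb beyond held 9 members. All 69 members on 3R lay in the first step, the deepest at 0.422 Mb from the boundary, near CG42402. The deepest IDR member was 0.334 Mb inside on X, near CG42346. The 9 members farther in had pooled signals from 27.53 to 64.36. They were nearest to scro (3 regions) and l(3)80Fg on 3L, Slmap and CG12567 on 2L, and CG17162, FucTC and stnA on X. The farthest was in an intron of l(3)80Fg, 3.11 Mb from the boundary, with a signal of 38.08. Of the 9, 3 overlapped a region in both replicates, 5 in replicate 1 only and 1 in replicate 2 only. Outside the boundaries, the last 0.5 Mb held 168 regions per Mb and 14.5 IDR regions per Mb, and the last 2 Mb 207 and 25.1. The first 0.5 Mb inside held 62 and 4.5. The first step held 108 protein-coding genes and the sequence beyond it 63.

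At the boundaries themselves, the nearest members inside were CG31693 on 2L (104.3), CG12768 on 3L (100.5), CG31523 on 3R (55.88) and CG17598 on X (73.95). The nearest regions outside were CG2528 on 2L (112.5), Chro on 3L (1038.2), CG9775 on 3R (102.3) and l(1)G0196 on X (32.07). The Chro promoter, whose gene encodes the chromosomal protein Chromator, was in the IDR list at rank 32, 21094 bp outside the segment, and the other 3 outside regions were not in the list.

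**Figure D3:**
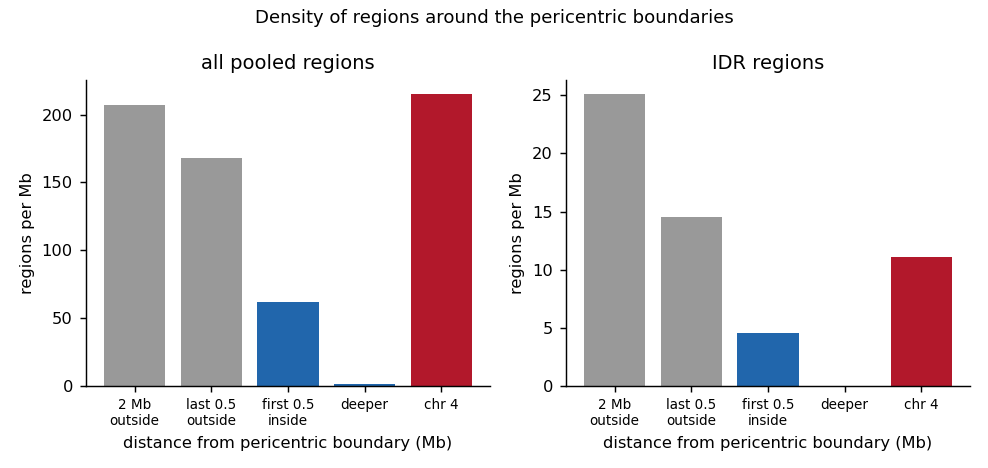
Pooled regions per Mb (left) and IDR regions per Mb (right) in the last 2 Mb and the last 0.5 Mb outside the pericentric boundaries, the first 0.5 Mb inside, the sequence deeper in, and chromosome 4, summed over the 4 arms. IDR density was 14.5 in the last 0.5 Mb outside, 4.5 in the first 0.5 Mb inside and 0 beyond, and 11.1 on chromosome 4.

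The place of summits relative to genes was described next. A summit within 500 bp of a protein-coding TSS was called a promoter summit. Promoters held 165 of 423 members (39%, interval 34.3 to 43.8%), against 27.4% of all pooled summits. On chromosome 4 the share was 31% (90 of 290, interval 25.8 to 36.7%) and in the pericentric segments 56.4% (75 of 133, 47.5 to 65%), with 68.1% on 3R. By replicate the member share was 38.6% and 42.1%. Introns held 26% of members and 45.7% of all summits, intergenic sequence 20.3% and 21.1%, coding exons 8.27% and 2.23%, and 3′ UTRs 4.96% and 2.62%. Of the 24 IDR members, 14 (58.3%) were at promoters, 4 in introns, 4 intergenic, 1 in a 5′ UTR and 1 in a 3′ UTR. Of all IDR regions 36.9% were at promoters.

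Signal within the members also varied by place. The median was 53.97 at the 165 promoter summits, 40.19 at the 110 intronic, 42.19 at the 86 intergenic and 34.82 at the 35 in coding exons. On chromosome 4, 9 of 90 promoter summits (10%) were in the IDR list, against 1 of 81 intronic ones (1.23%). Over all pooled regions these shares were 20% and 14%. None of the 35 members in coding exons was in the IDR list, which held only 7 of 669 coding exon summits (1.05%) over all pooled regions, so that this 0 does not set the members apart. Their highest signal was 60.06, at Hcf, which encodes host cell factor.

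**Figure D4:**
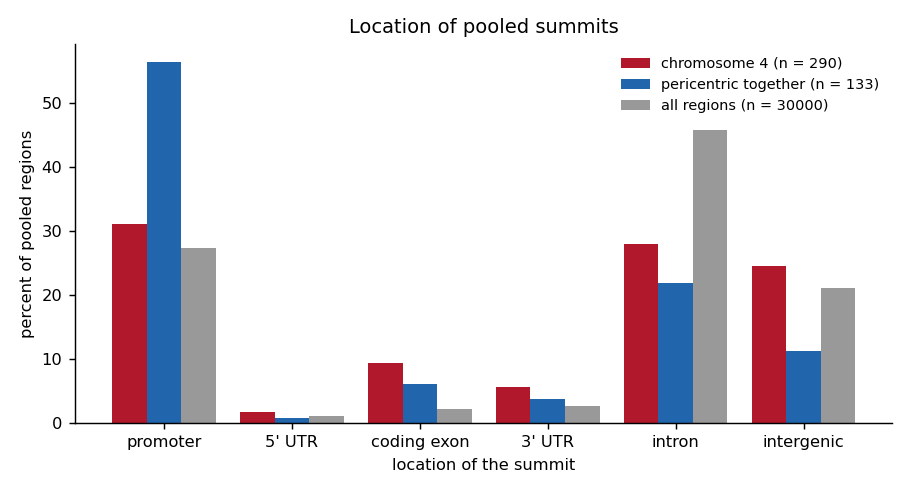
Percent of pooled summits in each location for chromosome 4, the pericentric segments together and all pooled regions. Pericentric summits were at promoters in 56.4% of cases and chromosome 4 summits in 31%, beside 27.4% of all, and intronic shares were 21.8%, 27.9% and 45.7%.

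Genes of the segments were then counted. Of 80 protein-coding genes on chromosome 4, 69 (86.2%) had a pooled summit in them or within 2 kb, and 13 (16.2%, interval 8.95 to 26.2%) had one in the IDR list. Of 171 pericentric genes, 67 (39.2%) had a pooled and 15 (8.77%, 4.99 to 14.1%) an IDR summit. Over all 13945 genes 59.8% had a pooled and 24.9% an IDR summit. From the strongest regions of a single replicate, 12.5% of chromosome 4 genes had a summit in replicate 1 and 17.5% in replicate 2. For pericentric genes these shares were 5.85% and 8.77%, and over all 13945 genes 24.7% and 26%. The median gene on chromosome 4 was 10090 bp long, against 2143 bp for genes outside the segments, and length was not matched.

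Of 17 chromosome 4 genes for transcription factors and cofactors, 16 had a member and 6 (35.3%) an IDR summit. These 6 were ci, pan, zfh2, Sox102F, sv and ey. Of all chromosome 4 genes 86.2% had a pooled summit and 16.2% an IDR summit, and of all 13945 genes 59.8% and 24.9%. The sv summit is the one shared with Cals. That of ey, the Pax6 gene that specifies the eye, is the myo promoter summit, which lies within 2 kb of the start of ey. The others were weaker, counting only summits in the gene or within 2 kb. The strongest summit of toy, the other Pax6 gene, had 46.76 and that of Mitf 89.14. That of lgs had 88.06, that of dati 74.6, and that of the Polycomb-group gene pho 44.48. The stronger intergenic summits nearest dati (195.1) and lgs (146.3) lie farther than 2 kb from these genes and were not counted. The homeobox gene onecut had 31.1 and the forkhead gene fd102C 35.46. The Mediator subunit gene MED26 had 81.72 at its promoter and Hcf 60.06. The region near fuss (28.04) was intergenic and nearest to the TSS of 4E-T. NfI had no member.

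Of 18 signalling and neuronal genes on chromosome 4, 17 had a member. Of the 18, 2 (11.1%), myo and Cals, had an IDR summit, beside 16.2% of all chromosome 4 genes and 24.9% of all genes. The promoters of mav (114.9, rank 4743) and Eph (109, rank 5184) were next. The semaphorin receptor genes PlexB and PlexA had 87.97 and 71.59, Ephrin 58.25, the metabotropic glutamate receptor gene mGluR 50.74, Ank, which encodes ankyrin, 51.3, and Actbeta, an activin ligand gene, 47.29. The region near Syt7 and that near unc-13 were nearest to the TSSs of Rad23 and Gyf. Their signals were 84.91 and 91.25, and that near CaMKI, a calcium-dependent kinase gene, was the lgs promoter summit (88.06). Asator had 89.44 and the adaptor gene Crk 83.62. The region near Slip1 (70.84) was the CG46466 promoter summit, and that near Cadps (49.17) lay in a coding exon of Dyrk3. Gat, a GABA transporter gene, had no member.

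Of 13 housekeeping and structural genes there, 12 had a member. Of the 13, 3 (23.1%), RpS3A, ATPsynbeta and Tdg, had an IDR summit, beside 16.2% of all chromosome 4 genes and 24.9% of all genes. The promoters of gw, which encodes the silencing protein GW182, Gyf and Rad23 had 91.38, 91.25 and 84.91. The promoter of eIF4G1, a translation initiation gene, had 52.62. The translation regulator gene 4E-T had 79.61, the lipophorin gene apolpp 58.6, and Arl4 53.89. The region near Zip102B (70.38) lay in an intron of Rnf11. The strongest summit within 2 kb of ND-49, a complex I subunit gene, was the Ephrin promoter summit (58.25). The gene bt, which encodes the large muscle protein projectin, is 52075 bp long and had no member. The median of each gene's strongest signal was 84.89 for the regulators, 84.91 for the signalling genes and 82.26 for the housekeeping genes. The lists share some summits, such as the Rad23 promoter summit (84.91), which was also counted for Syt7. The medians are therefore not over separate regions.

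Of 16 pericentric genes of the list that lay in the segments, 3 had a member: tio, scro and su(f), which encodes a messenger RNA 3′ end processing factor. Only tio (6.25%) had an IDR summit. Of all 171 pericentric genes 39.2% had a pooled and 8.77% an IDR summit, and of all genes 59.8% and 24.9%. No member was found at lt, cta, vtd, Dbp80, Snap25, RpL15, nrm, Parp1, Set1, alpha-Cat, Myo81F, spok or Pzl. Among them are very long genes: Myo81F spans 1965857 bp and Pzl 709421 bp on 3R. No member at a gene means that no region there was in the list of 30000, and read depth at these genes was not analysed here.

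Repeats in the sequence were described beside these counts. Lower-case, repeat-masked bases of the reference made up 28.1% of chromosome 4, 40% of the pericentric segments and 18.1% of the rest of the arms. Within 100 bp of the summits the mean share was 20% on chromosome 4, 16.6% in the pericentric segments and 18.5% elsewhere. At the 24 IDR members it was 17.8%, with values from 0 to 45.3%. Most pericentric members lay in the first 0.5 Mb, so they were also set against that sequence alone. There the masked share was 40% on 2L, with a mean of 19.7% at its 34 summits, and 25.2% on 3R, with 11.9% at its 69. It was 34% on 3L, with 17.7% at its 5 summits. On X the shares were close, 26.5% of the sequence and 24.6% at its 16 summits. Whether reads can be placed equally well in these parts of the genome was not tested.

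Some members lay inside annotated transposable elements. Of the members 37 (8.75%, interval 6.23 to 11.9%) had the summit in an element annotated by RefSeq, against 0.277% of the regions outside the segments. Such elements make up 25.1% of chromosome 4, 11.1% of the pericentric segments and 4.64% of the rest. The pericentric segments were uneven, with 15.8% on 2L, 14% on 3L, 4.5% on 3R and 17.9% on X. Their repeat-masked shares were 38.8%, 39.2%, 42.4% and 34.8% in the same order. The segment on 3R thus had the lowest annotated and the highest masked share, and the cause was not tested. Shares of summits in elements rest on this annotation. INE-1, a short element abundant on chromosome 4, held 20 summits, 1360 held 7, and Cr1a held 5. None of the 37 was in the IDR list, which held 5 of 119 element summits over all pooled regions (4.2%). Their median signal was 38.3. A region in both replicates overlapped 37.8% of them, against 63.2% of the other members, 57.3% of element summits outside the segments and 75.3% of other summits there. The strongest was a mariner2 summit near Ekar, at 647808, with a signal of 71.86 and rank 9677.

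Base composition and words were compared last. G and C made up 36.7% of the summit windows on chromosome 4, 42.9% in the pericentric segments and 41.5% over all pooled regions. TAATTA was in 53 of 423 windows (12.5%), beside 12.4% of all, and CAATTA in 17.5%, beside 17%. GAGAGA was in 5.52% of chromosome 4 windows and 13.5% of pericentric ones, beside 11.9% of all. ATCGAT was in 8.97% and 8.27%, beside 5.67%. TCACAC was in 10% and 11.3%, beside 10.2%, and CACACA in 13.8% and 21.8%, beside 20.8%. Among the 24 IDR members TAATTA was in 6 windows (25%), CAATTA in 1 (4.17%), GAGAGA in 4, ATCGAT in 4 (16.7%), TCACAC in 5 and CACACA in 6. Among all IDR regions TAATTA was in 13.6%, CAATTA in 15.9%, GAGAGA in 16.3%, ATCGAT in 4.45%, TCACAC in 10.7% and CACACA in 20.4%. The IDR members are few, the words were not corrected for base composition, and no difference was tested.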

How the data were processed

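ChIP-seq region lists on dm6 and dm3 were used, for each of 2 replicates and for both pooled. Per the file records deposited with them, the relaxed lists hold peaks and background regions as input for the IDR step, and the IDR threshold, the caller of peaks and the aligner are not given in the sources read. For each region, the deposited signal value was used within a list only. The deposited q-value is on the −log10 scale, up to 4.15, and a further deposited column gives the summit's offset. No read counts are given, so depth is unknown and sets no interval here. Chromatin was sonicated to 200 to 800 bp, per the labels.

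Regions were matched by at least 1 bp, taking the strongest match. Genes came from Ensembl release 115 and sequence and transposable elements from RefSeq, both on release 6 (dm6), with 1-based coordinates and none converted. Of the listed symbols all matched, 2 through older names. Shares have exact 95% binomial intervals. Pericentric 2R is outside the rule. The members and lists were chosen with earlier results of these data known. The genes named are the nearest gene of every IDR member, the 3 strongest members per segment and the listed genes; others were named after their values were seen. Matching code was checked on simulated regions. Alternatives covered boundaries, overlap, promoter distance, windows and single replicates. The tools were scipy 1.17.1, pandas 2.3.3, matplotlib 3.10.9 and numpy 2.4.6 under Python 3.11.15.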

Additional observations from a re-analysis of the deposited data

Results flagged for a closer look

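Signal was also present in sequence that the comparisons above do not use. On dm3, the IDR list held 5 regions on Uextra, sequence that this build does not place on a chromosome, with signal from 244.4 to 457.9. The relaxed dm3 lists held 6 such regions in the pooled list and 7 in replicate 1, where the strongest ranked 70, and 0 in replicate 2. Their dm6 positions were not analysed here.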

How the results depend on the processing

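Unknown depth limits every comparison between lists, and the pericentric values depend on where the boundary is drawn. With boundaries 0.5 Mb farther from the centromere there were 758 members, 6.99% in the IDR list, at 3.39 IDR regions per Mb and a density 0.0914 times that of the rest of the arms, where the main value was 0.0479. With boundaries 0.5 Mb nearer it, density was 1.29 per Mb and the ratio 0.0356. Per gene in place of per Mb the ratio was 0.296. When only the upper part of the IDR list by signal was used, with 0.5 of its regions, it held 1.89% of members and 7.41% of all pooled regions. From single replicates, members numbered 382 to 451, the IDR share was 4.21 to 6.02%, density 1.4 to 1.69 per Mb, its ratio 0.0379 to 0.0461, the percentile of the median 37.9 to 38.4 and the promoter share 38.6 to 42.1%. The promoter share was 24.3% within 200 bp, 52.2% within 1000 bp and 58.3% in IDR members. The masked share was 20.3% with windows of 200 bp each side. Of the 451 relaxed regions of replicate 1 in the segments, 54.1% overlapped a relaxed region of replicate 2, against 74.3% of all its relaxed regions. For the 382 of replicate 2 it was 64.1%, against 74.3%. Of 53 alternatives 37 were labelled as moving a value, among them all 18 for single words. Some of these, such as the IDR shares of 4.21 and 6.99%, lie within the counting interval of 3.67 to 8.32%. The count of 37 therefore does not measure change beyond counting error. By construction, a wider window raises a word share, a longer promoter distance raises the promoter share, and a shorter IDR list lowers the IDR share. Moving the boundaries adds the 335 regions of the last 0.5 Mb outside or removes the 124 of the first 0.5 Mb inside. For the other alternatives the cause was not tested. No paired analysis was possible because the design has 1 group.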

Other observations

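The dm3 lists gave chromosome 4 nearly the same values without any conversion of coordinates. The pooled dm3 list held 282 regions there and the IDR list 15, with signal from 120.4 to 412.1, beside 290 and 15 on dm6, with 120.4 to 412.5. On dm3, where part of the pericentric sequence is kept as separate heterochromatin scaffolds, these held 7 pooled regions with signal up to 63.24, and none was in the IDR list. Replicate 1 held 20 regions on them and replicate 2 held 7.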
